A study of Mus musculus with 5 samples.

Results

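The mitochondrial respiratory chain is built from subunits of 5 complexes, and the genes for most of them lie in the nucleus. Rows of the deposited expression table were taken as nuclear-encoded subunits by gene symbol: names starting with Ndufa, Ndufb, Ndufc, Ndufs or Ndufv and a digit, with Uqcr, with Cox4 to Cox8 or with Atp5, and Sdha to Sdhd, leaving out processed pseudogenes named with -ps. This gave 84 of 45706 rows, with 37 subunits of complex I, 4 of complex II, 8 of complex III, 18 of complex IV and 17 of complex V. RNA was sequenced from mammary cells of Balb/c mice that carried the receptor PDGFRa on their surface, a marker used to sort fibroblasts. The cells came from the 4th and 5th mammary glands of nulliparous mice (2 libraries) and of mice at 6 days post-weaning, called involution day 6 (3 libraries). Neither group carried an introduced allele or received an agent according to the labels, which give no age. The series calls the libraries biological replicates, and the number of mice behind each is not given in the sources used here.

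Complex I takes electrons from NADH and complex II takes them from succinate, and both pass them to coenzyme Q. Complex III hands them on to cytochrome c, complex IV gives them to oxygen, and complexes I, III and IV pump protons across the inner mitochondrial membrane. Complex V, the ATP synthase, makes ATP from the returning protons. Involution is the regression of the milk-producing gland after weaning, in which fibroblasts remodel the matrix around dying epithelium.

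Differences in subunit RNA between fibroblasts of the involuting and the nulliparous gland were small. Of 80 subunits tested, 3 rose, among them Cox7a2l by 1.35-fold and Uqcrh by 1.28-fold, Cox4i2 fell to 0.449 of its nulliparous level, and 76 did not pass, all on the deposited scale. The 3 that rose are 3.75% of the tested subunits, against 6.65% of all 15912 tested genes called higher. The 1 that fell is 1.25%, against 4.66% of all tested genes called lower. The tests were rows of limma's moderated two-sided fit over all genes, with Benjamini-Hochberg adjustment and a threshold of 0.05. The groups differ in pregnancy, lactation and weaning, whose parts cannot be told apart, and in sorted bulk RNA fewer cells of a type and less RNA per cell cannot be told apart either.

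Deposited values were read here as log2 of a scaled count plus an offset of about 11.8 units, a form the sources do not state. On that reading a gene without reads stands at 3.57 and differences of weakly expressed genes are understated. The lowest value listed was 3.44, slightly below that level, so units above the offset are approximate. The median difference (involution minus nulliparous) was 0.09 over the 80 subunits and -0.03 over all tested genes. The difference was above 0 in 57 subunits, or 71.2%, and in 46.2% of all tested genes. Such a lean was not particular to the chain. It was above 0 in 87.2% of 78 cytosolic ribosome genes (median 0.08) and in 65.8% of 38 proteasome genes (median 0.06). In 76 mitochondrial ribosome genes the share was 47.4% (median -0.03). By complex the median was 0.05 in I, 0.12 in II, 0.09 in III, 0.16 in IV and 0.10 in V. The sign of the median over all subunits changed with the scaling and with 1 library left out. With libraries scaled to equal totals the median over all genes moved to -0.16 and that over the subunits to -0.05, while the median of complex IV stayed above 0, at 0.02. Without nulliparous replicate 2 the subunit median was -0.05. The subunit median minus the all-gene median was 0.12 as deposited, 0.11 at equal totals and 0.04 with length and GC content corrected. It was 0.22 without nulliparous replicate 1 and -0.02 without nulliparous replicate 2.

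The 95% interval of the difference lay within a 2-fold change in either direction for 78 of the 80 subunits and within 1.5-fold for 70. The exceptions to the 2-fold bound were Cox4i2, whose interval ran from -1.80 to -0.51, and Cox7a1, whose interval ran from -0.45 up to that bound. Among the 76 subunits that did not pass, differences ran from -0.28 to 0.28 and the lowest adjusted p in limma was 0.141. Unadjusted p was under 0.05 for 6 of the 80 and for 4604 of all 15912 tested genes. The groups did not overlap for 11 subunits that stood higher at involution and 4 that stood lower. These are 13.8% and 5.00% of the subunits, against 21.9% and 25.1% of all tested genes.

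**Figure D1:**
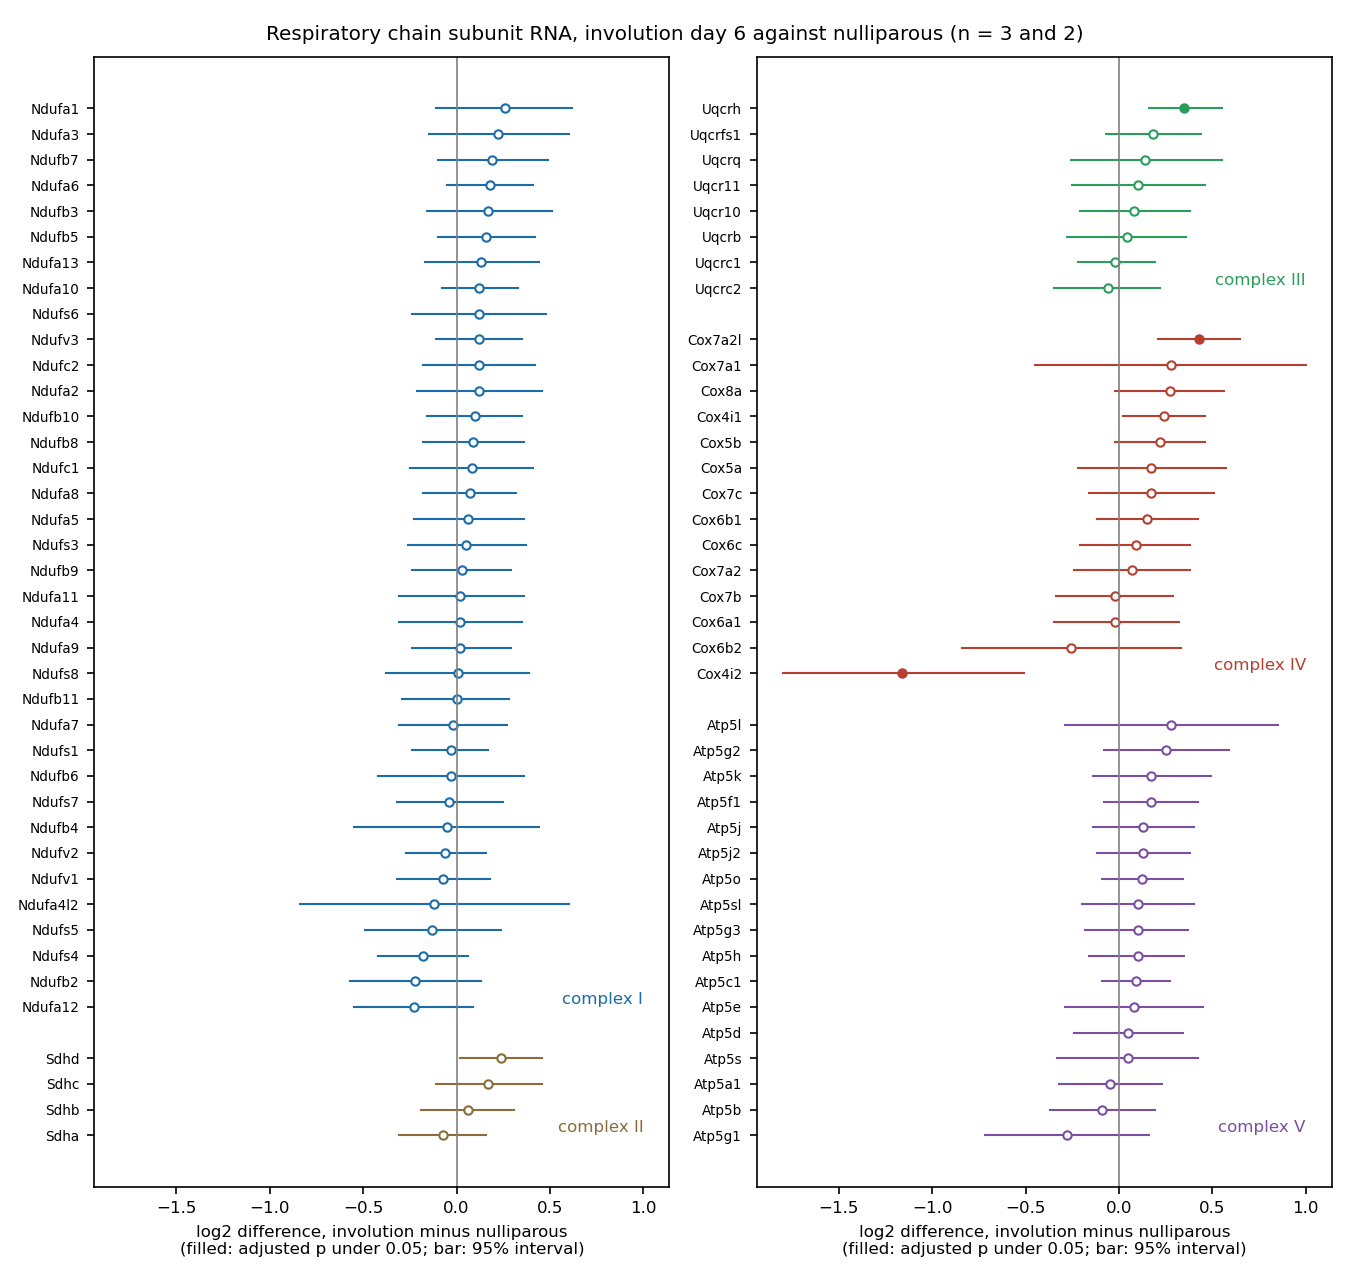
Log2 difference (involution day 6 minus nulliparous) of all but 1 of the 80 tested subunits, ordered within complexes, with bars for the 95% interval of the limma fit and filled points for adjusted p under 0.05. The 76 open points lie between -0.28 and 0.28, Uqcrh and Cox7a2l lie at 0.35 and 0.43, and Cox4i2 stands apart at -1.16.

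Of the 37 subunits of complex I, the largest complex, 1 rose, 0 fell and 36 did not pass. Core subunits carry the flavin and iron-sulfur centres on the matrix side. Ndufv1, which binds NADH, differed by -0.07, Ndufv2 by -0.06, Ndufs1 by -0.03, Ndufs3 by 0.05, Ndufs7 by -0.04 and Ndufs8 by 0.01. None of these passed, and the groups overlapped in each.

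Accessory subunits of complex I surround the core and several are needed for its assembly. Ndufa6, an accessory subunit that binds the mitochondrial acyl carrier protein, stood at 9.94 and 9.93 against 10.02, 10.12 and 10.21, a difference of 0.18 ± 0.09 (adjusted p = 0.262 in limma). Ndufs4, whose loss causes complex I disease in mice and people, stood at 10.35 and 10.17 against 10.07, 10.01 and 10.16. All 3 involution values lay below both nulliparous values, by 0.18 ± 0.10 on average (adjusted p = 0.289 in limma). The lowest differences of the complex were in Ndufa12 (-0.23) and Ndufb2 (-0.22) while Ndufa1 (0.26) and Ndufa3 (0.22) stood at the upper end of those that did not pass. Ndufa4 carries a complex I name and is known as a subunit of complex IV. It differed by 0.02, and counting it there left the medians at 0.06 for complex I and 0.15 for complex IV. Its paralog Ndufa4l2 stood at 6.72 and 6.61 against 6.88, 6.01 and 6.74, a difference of -0.12 with overlapping groups. Ndufa4l2 made up 2.75% and 3.21% of the summed units per kb of this pair in nulliparous libraries. In involution libraries its share was 3.26%, 1.94% and 2.96%.

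Complex II, which is also an enzyme of the citric acid cycle, had 0 of 4 subunits past the threshold in limma, and 1 at an unadjusted p under 0.05. That was Sdhd, 1 of the membrane anchors, at 10.99 and 10.79 against 11.07, 11.13 and 11.17. Its 3 involution values lay above both nulliparous values, by 0.24 ± 0.09 (adjusted p = 0.149 in limma). The other anchor, Sdhc, differed by 0.17, the flavoprotein Sdha by -0.07 and the iron-sulfur subunit Sdhb by 0.06, with overlapping groups in each.

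In complex III, Uqcrh rose and 7 of 8 subunits did not pass. Uqcrh, the hinge protein that sits beside cytochrome c1, is encoded on the minus strand of chromosome 4 from 116066965 to 116075071 (GRCm38). It stood at 11.21 in both nulliparous libraries and at 11.51, 11.51 and 11.66 in the involution libraries. The groups lay apart by 0.35 ± 0.08 (adjusted p = 0.0446 in limma). Uqcrfs1, the Rieske iron-sulfur protein, differed by 0.18, the core protein Uqcrc1 by -0.02 and the small subunit Uqcrq by 0.14, and none passed. Of the 50-base stretches of the Uqcrh transcript, 7.83% also occur in 1 other annotated gene, the pseudogene Uqcrh-ps1, which was listed at 3.56 to 3.79.

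Complex IV held the largest rise and the fall among the subunits. Cox7a2l encodes the protein SCAF1. This protein is known to join complexes III and IV into supercomplexes, and whether it does so in Balb/c mice was not examined here. Cox7a2l lies on the minus strand of chromosome 17 from 83501918 to 83517330 (GRCm38). It stood at 11.13 and 11.32 against 11.61, 11.61 and 11.74. Every involution value lay above both nulliparous values, and the difference was 0.43 ± 0.09 (adjusted p = 0.0348 in limma), or 1.35-fold. Its paralog Cox7a2, the common isoform of that position in complex IV, differed by 0.07 with overlapping groups (10.41 and 10.21 against 10.34, 10.23 and 10.57). Cox7a2l made up 50.3% and 57.0% of the summed units per kb of transcript of this pair in nulliparous libraries and 59.7%, 61.7% and 58.0% in involution libraries. The Cox7a2l transcript shares 19.77% of its 50-base stretches with 1 other annotated gene, the pseudogene Gm6969, which was listed at 4.42 or lower in every library.

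Cox4i2 encodes the isoform of COX4 known from lung and from cells at low oxygen, and Cox4i1 the isoform used in most tissues. Cox4i2, on the plus strand of chromosome 2 from 152754173 to 152765037 (GRCm38), stood at 5.78 and 5.33 in nulliparous libraries and at 4.64, 4.19 and 4.38 in involution libraries. All 3 involution values lay below both nulliparous values, near the 3.57 of a gene without reads. The difference was -1.16 ± 0.26 (adjusted p = 0.043 in limma). With the offset removed the nulliparous libraries had 43.1 and 28.4 units of the gene, the involution libraries had 13.0, 6.40 and 8.91, and the means were 3.79-fold apart. Of the summed units per kb of both COX4 isoforms, Cox4i2 made up 1.02% and 0.736% in the nulliparous group and 0.266%, 0.146% and 0.179% at involution. Cox4i1 itself stood at 12.09 and 11.97 against 12.32, 12.16 and 12.35, and its difference of 0.24 ± 0.09 missed the threshold (adjusted p = 0.141 in limma).

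Cox4i2 RNA is also known from pericytes, the mural cells of capillaries, so markers of these cells were read beside it, on a list chosen after the Cox4i2 value was seen. Of 7 pericyte markers 6 were tested, and 0 passed in either direction in limma. All 6 differences were below 0, with a median of -0.56. The summed markers came to 9690 and 10600 units in nulliparous libraries and to 7440, 6210 and 4630 in involution libraries. This sum was lower in every library of the group where Cox4i2 fell. Taken singly, 2 of the 6 had all involution values below both nulliparous values (33.3%, against 25.1% of all tested genes). In the other 4 the groups overlapped. Notch3, a receptor gene of mural cells, had the largest difference at -1.55 (adjusted p = 0.0543 in limma). Without involution replicate 1 its adjusted p in limma was 0.00745, and without involution replicate 2 or 3 it was 0.138 and 0.118. Without nulliparous replicate 1 or 2 the difference was -1.39 and -1.70. Notch3 also passed at equal totals (0.0324 in limma) and with the replicate block (0.00715). In the remaining alternatives with all libraries its adjusted p in limma ran from 0.0507 to 0.168. The part of pericytes in the Cox4i2 result was not tested.

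The other complex IV subunits did not pass, with differences from -0.26 to 0.28. Cox8a stood at 11.27 and 11.04 against 11.38, 11.30 and 11.59, and Cox5b at 10.41 and 10.26 against 10.57, 10.45 and 10.65. In both, the groups did not overlap and the adjusted p in limma was 0.194 and 0.205. Cox5a, the partner of Cox4i1 at the matrix side, differed by 0.17 and Cox6a1 by -0.02. Isoforms known from muscle or testis had low values. Cox7a1, of heart and skeletal muscle, stood between 4.35 and 5.25, and Cox6b2, of testis, between 5.27 and 5.79. Cox8b, of muscle, stood between 3.91 and 4.24 and Cox6a2, of muscle, between 3.56 and 3.80, while Cox7b2 and Cox8c were listed without reads in any library, a value that some mitochondrially encoded genes used by every cell share in this table. These last 4 were not tested.

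**Figure D2:**
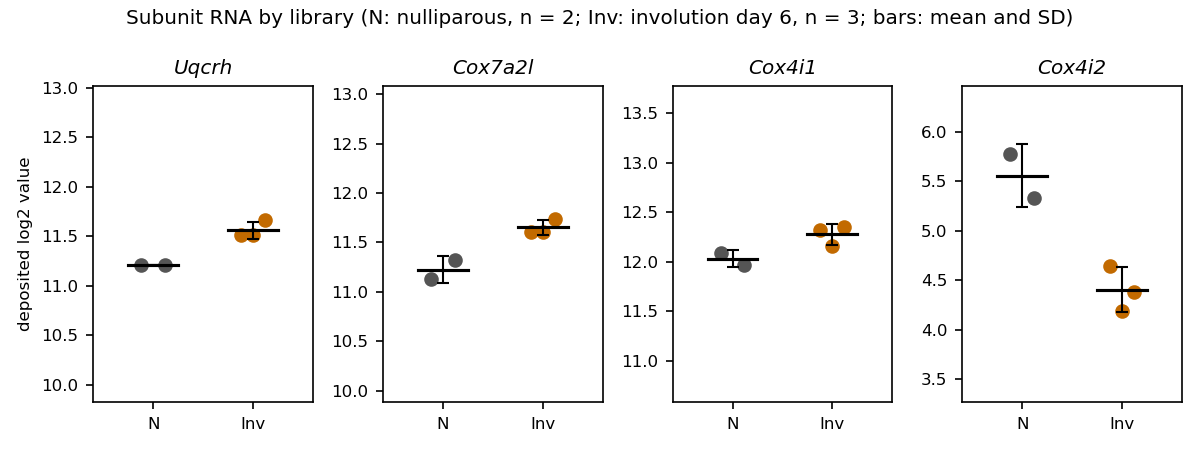
Deposited log2 values of Uqcrh, Cox7a2l and Cox4i2, which passed, and of Cox4i1, the common isoform beside Cox4i2, in each library, with bars for the mean and SD (n = 2 nulliparous, n = 3 involution). All panels span the same range, so steps of 0.35 and 0.43 in Uqcrh and Cox7a2l can be seen against the step of -1.16 in Cox4i2.

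Complex V had 0 of 17 subunits past the threshold in limma, and 0 at an unadjusted p under 0.05. Atp5a1 and Atp5b, the alpha and beta subunits of the catalytic head, differed by -0.05 and -0.09. Atp5b stood at 14.01 and 13.71 against 13.82, 13.70 and 13.80, the highest values of any subunit. The ring of c subunits that turns in the membrane is encoded by Atp5g1, Atp5g2 and Atp5g3, whose mature proteins are alike. Atp5g1 differed by -0.28, Atp5g2 by 0.25 and Atp5g3 by 0.10, and none passed. Atp5g1 made up 4.10% and 3.47% of the summed units per kb of Atp5g1 and Atp5g3 in nulliparous libraries and 3.00%, 2.80% and 2.97% in involution libraries, with Atp5g1 taken at its annotated length of 4715 bases. Atp5f1, of the peripheral stalk, differed by 0.17. Atp5s and Atp5sl fall under the symbol rule, and Atp5sl is known as an assembly factor of complex I; they differed by 0.05 and 0.10.

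None of the 4 calls held without any 1 of the 5 libraries, with adjusted p from 0.0626 to 0.197 in limma, although their differences kept their signs. All-gene calls dropped as well, to between 296 and 786 higher and between 208 and 483 lower. At equal totals, where 803 genes were called higher and 1731 lower against 1058 and 742 as deposited, the 3 rises did not pass (adjusted p from 0.0911 to 0.175 in limma) and Cox4i2 did (0.0304). With every row that had reads kept in the fit none of the 4 passed (0.0844 for Cox7a2l and Uqcrh and 0.0882 for Cox4i2), and without the mean-variance trend none of the 3 rises did (0.0879 for Cox7a2l and 0.106 for Uqcrh). Cox4i2 also missed the threshold with the offset taken off and 1 added (0.0503).

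The libraries of 1 group differed from each other across nearly the whole chain. Nulliparous replicate 1 stood above replicate 2 in 75 of 80 subunits, by a median of 0.24, while 49.4% of all tested genes had that order. Involution replicate 3 stood above replicate 2 in 70 of 80, by a median of 0.15, while 48.8% of all tested genes did. In 59 subunits, or 73.8%, the 2 nulliparous libraries differed from each other by more than the groups did, compared with 43.7% of all tested genes. The median deviation from a gene's own mean was 0.08 and -0.17 in the nulliparous libraries and 0.02, -0.05 and 0.11 in the involution libraries, so the group step is small beside the step between libraries.

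**Figure D3:**
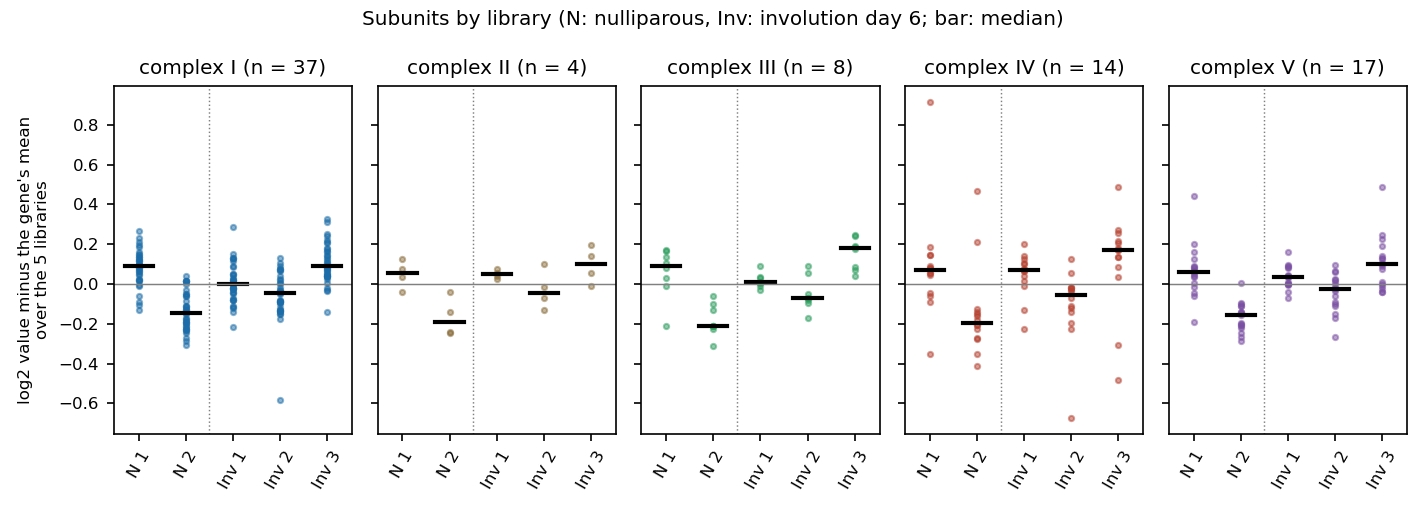
Each subunit's log2 value minus its mean over the 5 libraries, by complex, with a bar for the median. In every complex nulliparous replicate 2 has the lowest median of the 5 libraries.

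Lists of ribosomal and proteasome genes had the same order of libraries. Nulliparous replicate 1 was above replicate 2 in 74 of 78 cytosolic ribosome genes, 37 of 38 proteasome genes and 65 of 76 mitochondrial ribosome genes. Involution replicate 3 was above replicate 2 in 77, 33 and 67 of them. Subunit transcripts were short, with a median length of 863 bases against 2861 for all tested genes, and 47 of the 80 were under 1000 bases. Among all 1441 tested genes under 1000 bases, nulliparous replicate 1 was above replicate 2 in 50.5% and involution replicate 3 above replicate 2 in 66.3%. These genes had a median group difference of 0.08, and those of 3000 bases or more of -0.09. After the trend with length and GC content was removed from each library, the subunit median was 0.03 against -0.01 for all genes. The part of length, RNA quality and input in the differences between libraries was not tested.

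Subunits encoded in mitochondrial DNA are made inside the organelle and join the nuclear ones in complexes I, III, IV and V. Of 13 listed, 7 had reads, and all 7 differed upward with a median of 0.41, against 46.2% of all tested genes that differed upward. Of the 7, 1 passed, or 14.3% against 6.65% of all tested genes called higher. ND6, the complex I subunit encoded on the light strand, stood at 12.38 and 11.97 against 12.91, 12.90 and 12.64. Its groups lay apart, by 0.64 ± 0.15 (adjusted p = 0.0452 in limma). ND4 stood at 14.06 and 13.75 against 14.47, 14.30 and 14.34, a difference of 0.46 with an adjusted p of 0.0639 in limma. CYTB differed by 0.48, ND5 by 0.41, COX1 by 0.31, ND1 by 0.21 and ND2 by 0.17. The ND6 call did not hold without nulliparous replicate 1 or 2 or involution replicate 1 or 2 (adjusted p = 0.0511, 0.166, 0.107 and 0.139 in limma) and held without involution replicate 3 (0.0495). It did not hold under 5 other alternatives (0.0655 to 0.135). With quantile normalization the median of these 7 genes was 0.05.

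The other 6 mitochondrially encoded genes, COX2, COX3, ATP6, ATP8, ND3 and ND4L, were listed without reads in any library. Of these, 5 share 97.99% to 100% of their 50-base stretches with annotated nuclear pseudogenes of chromosome 1, and ATP8 shares none. Among mitochondrially encoded genes with reads, ND4 shares 62.23% and COX1 51.14% with other annotated genes, and their levels are uncertain too. The others with reads share 8.19% (ND2) or less. How reads that match more than 1 place were counted is not given in the sources used here. Nuclear subunits share sequence with pseudogenes as well. Over 20% of 50-base stretches were shared in 17 of 80 subunits, with a median level of 1220 units per kb of transcript, against 1610 in the other 63, and the median difference was 0.10 and 0.09. Atp5g2 (87.39%), Atp5l (84.85%), Cox7c (52.95%) and Ndufb4 (36.98%) had high shares, and their levels are uncertain.

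Per length of transcript, the subunits spanned a wide range within each complex. These are levels as units above the offset per kb of the annotated principal transcript, averaged over the 5 libraries. Complex I ran from 58.8 (Ndufb4) to 3160 (Ndufa4), complex II from 665 (Sdhc) to 1790 (Sdha) and complex III from 597 (Uqcrq) to 5030 (Uqcrh). Complex IV ran from 27.2 (Cox4i2) to 6070 (Cox4i1) among tested subunits and complex V from 97.1 (Atp5s) to 7490 (Atp5b). The median was lowest in complex I, at 1010, and highest in complex V, at 2250. Low levels of Ndufb2 (65.5) and Atp5g1 (176) rest on annotated transcripts of 4371 and 4715 bases, the longest among the subunits. Uqcrh, which rose, was the most abundant subunit of complex III per kb in the mean of the 5 libraries.

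**Figure D4:**
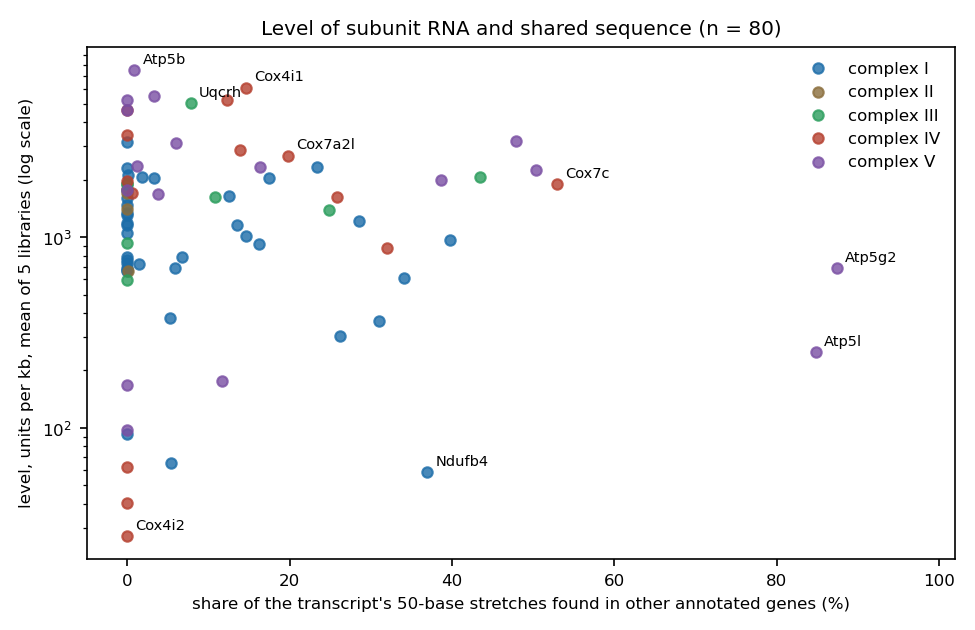
Level of each tested subunit (units above the offset per kb of transcript, mean of 5 libraries, log scale) against the share of its transcript's 50-base stretches found in other annotated genes, coloured by complex. Atp5g2 and Atp5l lie far to the right at 87.39% and 84.85%, and Cox4i2 is the lowest point at 27.2 with no shared stretch.

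Many genes of the chain are known targets of the transcription factors NRF1, GABPA (a subunit of NRF2), YY1 and the oestrogen-related receptors. Promoter windows of 250 bases before to 50 after the transcription start (RefSeq, GRCm38.p6) were found for 69 of the 84 subunits, 75 windows in all, and searched on both strands. The NRF1 motif, GCGCA and GCGC with any 1 base between them, lay in 24.0% of subunit windows and in 4.60% of all 32851 windows. The GABPA motif CCGGAAG lay in 21.3% and 8.86%, the YY1 motif AANATGGCG in 16.0% and 2.38%, and the motif of oestrogen-related receptors, CAAGGTCA, in 5.33% and 1.56%. Among windows of the tested genes alone the shares were 8.71%, 15.4%, 4.33% and 1.09%. A match describes the sequence and does not show binding.

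The 250 bases before the start are shown for the matched subunits that rose and for a pair of complex II genes with NRF1 matches that did not pass, in the gene's 5′ to 3′ direction with matches in capitals. Uqcrh has a GABPA match, read on the opposite strand, close to the start. Cox7a2l has none of the 4 motifs in this window. Sdha has 3 NRF1 matches, and Sdhd has 1 NRF1 and 1 GABPA match, and 1 match of the oestrogen-related receptor motif after the start, outside the bases shown.
Uqcrh, chr4:116075071-116075320, minus strand: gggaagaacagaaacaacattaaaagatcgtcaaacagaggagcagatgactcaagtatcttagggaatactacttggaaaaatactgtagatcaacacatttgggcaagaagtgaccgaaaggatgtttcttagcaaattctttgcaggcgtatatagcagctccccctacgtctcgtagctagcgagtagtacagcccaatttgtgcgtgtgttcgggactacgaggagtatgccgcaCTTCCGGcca
Cox7a2l, chr17:83514334-83514583, minus strand: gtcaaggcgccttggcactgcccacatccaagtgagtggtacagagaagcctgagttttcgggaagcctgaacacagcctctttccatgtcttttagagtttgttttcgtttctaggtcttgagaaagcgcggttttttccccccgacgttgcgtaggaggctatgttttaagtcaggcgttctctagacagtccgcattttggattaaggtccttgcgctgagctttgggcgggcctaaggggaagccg
Sdha, chr13:74350241-74350490, minus strand: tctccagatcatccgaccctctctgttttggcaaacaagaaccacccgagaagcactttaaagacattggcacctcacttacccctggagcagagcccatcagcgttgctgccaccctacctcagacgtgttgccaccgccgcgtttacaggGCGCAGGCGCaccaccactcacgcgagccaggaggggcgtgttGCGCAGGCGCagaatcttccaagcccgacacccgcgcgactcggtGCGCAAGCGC
Sdhd, chr9:50603850-50604099, minus strand: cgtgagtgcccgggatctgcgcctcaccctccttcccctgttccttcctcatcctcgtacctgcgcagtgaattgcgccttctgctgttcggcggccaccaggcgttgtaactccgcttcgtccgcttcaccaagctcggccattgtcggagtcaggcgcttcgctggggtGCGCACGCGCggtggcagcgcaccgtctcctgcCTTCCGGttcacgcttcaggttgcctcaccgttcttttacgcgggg
The matched pair Sdha and Sdhd differed by -0.07 and 0.24 without passing, and Uqcrh with and Cox7a2l without a match both rose. The RefSeq start of Cox7a2l lies inside the GENCODE gene, and the start of Sdha lies close to the GENCODE end.

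Of 23 regulators of mitochondrial biogenesis 2 rose and 0 fell, with a median of -0.05, and the 2 are 8.70% against 6.65% of all tested genes. Ppargc1a, the coactivator PGC-1alpha, stood at 5.02 and 5.24 against 7.07, 7.94 and 6.81. Every involution value lay above both nulliparous values, by 2.15 ± 0.36 (adjusted p = 0.0166 in limma). Ppargc1b, its paralog PGC-1beta, stood at 6.15 and 6.52 against 7.20, 7.47 and 7.31, a rise of 0.99 ± 0.20 (adjusted p = 0.0308 in limma). Among factors they act through, Nrf1 differed by -0.03, Gabpa by -0.15, Yy1 by -0.13 and the receptor gene Esrra by -0.00. Tfam, which packages mitochondrial DNA, differed by -0.05, and none of these passed. Other regulators differed more, as the 23 differences ran from -1.46 to 2.15. Unadjusted p in limma was under 0.05 for 6 of the 23. The groups did not overlap for 5 that stood higher at involution and 5 that stood lower. Each is 21.7% of the list, against 21.9% and 25.1% of all tested genes. Without nulliparous replicate 1 or 2 the Ppargc1a call did not hold (adjusted p = 0.0906 and 0.0732 in limma), and without any 1 library the Ppargc1b call did not hold (0.0614 to 0.141). Neither passed with every row that had reads in the fit (0.0844 and 0.0955).

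Neighbouring mitochondrial lists held 0 to 2 called genes each. Of 46 assembly factors of the complexes, Cmc1, a complex IV assembly factor, rose by 0.57 ± 0.11 (8.40 and 8.32 against 8.93, 8.94 and 8.93; adjusted p = 0.0273 in limma) and 0 fell. Of 19 citric acid cycle and pyruvate entry genes, Idh2, the mitochondrial NADP-dependent isocitrate dehydrogenase, rose by 0.44 ± 0.09 (11.38 and 11.32 against 11.89, 11.82 and 11.67; adjusted p = 0.0312 in limma) and 0 fell. Among 12 carriers and antioxidant genes, Vdac2, an outer membrane channel, rose by 0.71 ± 0.09 (adjusted p = 0.00789 in limma) and Sod2, the superoxide dismutase of the matrix, by 0.68 ± 0.12 (0.0192), and 0 fell. These 2 of 12 are 16.7%, against 6.65% of all tested genes called higher. The call among assembly factors is 2.17% of that list, and the call among citric acid cycle and pyruvate entry genes is 5.26%. Vdac2 passed without each library in turn (0.0165 to 0.0499), while Cmc1 did not pass without any 1 library (0.0607 to 0.121). Idh2 did not pass without nulliparous replicate 1 or 2 or involution replicate 1 or 2 (0.108, 0.135, 0.0906 and 0.106), nor Sod2 without nulliparous replicate 1 or 2 or involution replicate 2 (0.102, 0.0702 and 0.0741). With every row that had reads in the fit Idh2 and Sod2 did not pass (0.0844 and 0.0766), nor without the mean-variance trend (0.0827 and 0.0508). At equal totals Cmc1 and Idh2 did not pass (0.0600 and 0.0619), and with length and GC content corrected Idh2 did not (0.0516).

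In 4 further lists 0 genes passed in limma. These were 11 genes of coenzyme Q synthesis, 76 of the mitochondrial ribosome, 21 of mitochondrial import and 6 chain genes outside the symbol rule, among them Ndufab1, Cyc1 and Cycs. Their medians were -0.04, -0.03, -0.10 and 0.02.

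**Figure D5:**
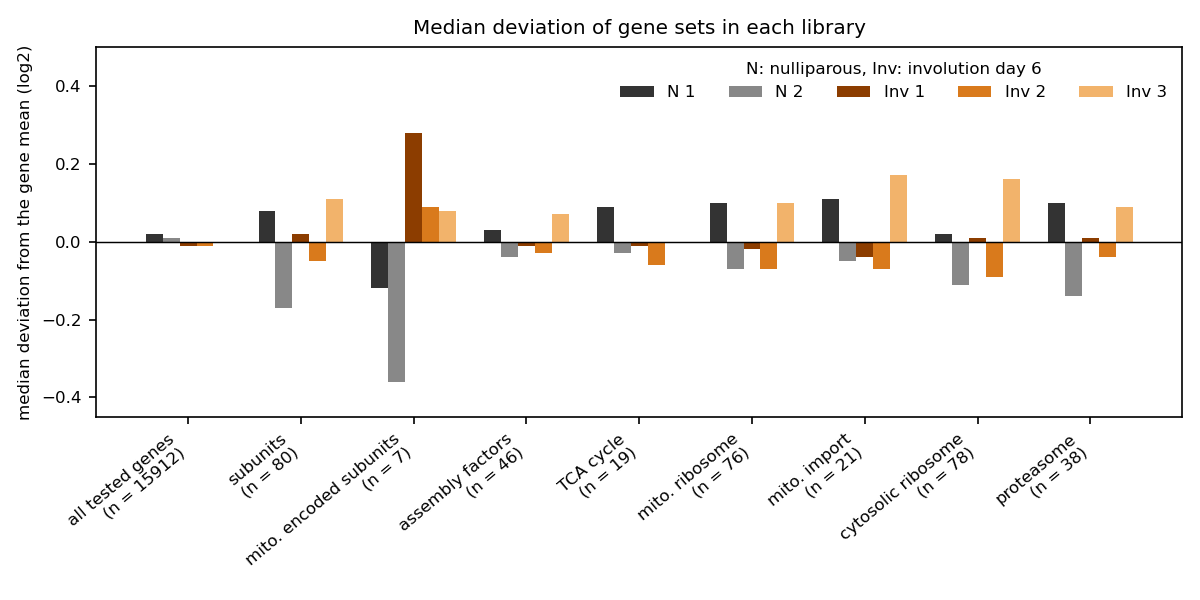
Median deviation of each gene list from its genes' means over the 5 libraries, in log2 units, with bars for the 2 nulliparous (N) and 3 involution (Inv) libraries. Subunits, ribosomal and proteasome genes share a low N 2 and a high Inv 3, and the mitochondrially encoded genes are below 0 in both nulliparous libraries.

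Totals were 37600000 and 38900000 units in nulliparous libraries and 43000000, 42600000 and 41000000 in involution libraries. Every involution total lay above both nulliparous totals. The sorted receptor gene Pdgfra stood at 15.69 to 16.09, and all 8 fibroblast markers were expressed, with 0 past the threshold in limma. Markers of other cells moved with the groups in part. The marker counts below stand against 6.65% of all tested genes called higher and 4.66% called lower. Of 10 macrophage markers 2 rose (Adgre1 and Lyz2) and 0 fell. All 10 macrophage differences were above 0, with a median of 0.97, while 46.2% of all tested genes differed upward. The summed level of the 10 was 2280 to 4600 units in nulliparous and 4540 to 13700 in involution libraries. Of 12 epithelial markers 1 rose (8.33%), the milk protein gene Wap, and 0 fell, while 9 differed downward and the median difference was -1.15. Their sum was 9570 to 31200 and 7360 to 44500 units. Of 6 lymphoid markers Jchain and Igha rose (33.3%), with sums over the 6 of 368 to 559 and 5920 to 23400 units. Of 5 endothelial markers and 1 tested adipocyte marker 0 passed. Of 3 tested brown adipocyte markers Ppargc1a rose (33.3%), and 2 of the 3 differences were above 0. They ran from -0.19 to 2.15, with a median of 1.15. Ucp1, the defining marker, stood at 3.72 to 4.13 and was below the filter. Of 4 tested muscle markers Myh4 fell, while Ckm stood at 3.57 to 3.79. The part of other cell types in the subunit values was not tested.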

How the data were processed

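RNA sequencing of PDGFRa-sorted mammary cells was analysed in 2 nulliparous and 3 involution day 6 libraries. Libraries were made with the TruSeq RNA kit V2, per the labels' protocols, and the submitters' processing notes name bcl2fastq, STAR 2.4.2a and the build GRCm38. The authors deposited log2 values, 1 column per library. The counting tool, annotation, scaling and offset were not given in those sources. Whole reads were not recovered, so no count test was run and the counting depth of a value is unknown.

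Genes with a mean of at least 4.45, which is 10 units above the offset, were tested (15912 of 45706 rows) with limma 3.58.1 in R 4.3.3, a moderated two-sided test with a mean-variance trend, Benjamini-Hochberg adjustment over all tested genes and a threshold of 0.05. The fit was tested on simulated data. Subunits, gene lists and the filter were chosen with earlier results of these data known. Lists are described by counts and medians. Some items counted in them are not reported here. Genes named in the text are, per complex, the 3 with the smallest p, core subunits, paralogs, the extremes, and 2 per companion list; others, among them Ndufa1, Ndufa3, Ndufa12, Ndufb2 and the factor genes, were named after their values were seen. Coordinates, lengths and overlaps are from GENCODE M21, with the principal or else the longest transcript, and promoters from RefSeq. Alternatives were 2 filters, 2 offsets, 4 scalings, 2 variance priors, a length and GC correction, a replicate block and leaving out each library.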

Additional observations from a re-analysis of the deposited data

How the results depend on the processing

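Depth could not be read from the deposited values, and 2 and 3 libraries limit what a test can call. The all-gene counts of 1058 higher and 742 lower became 322 and 235 with every row that had reads, 686 and 482 without the mean-variance trend, and 803 and 1731 at equal totals. The 3 subunits called higher became 0 with every row that had reads, at equal totals and without the trend. The 1 called lower became 0 with every row that had reads, with the stricter filter of 50 units, which left Cox4i2 untested, and with the offset taken off and 1 added (adjusted p = 0.0503 in limma). At equal totals the median was -0.05 over all subunits, -0.09 in complex I, -0.03 in II, -0.05 in III, 0.02 in IV and -0.04 in V. The cause was not tested.

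The replicate numbers 1 and 2 occur in both groups. Deviations from the group means correlated at 0.577 for number 1 and 0.063 for number 2. Deviations of the 2 nulliparous libraries mirror each other by construction. This check therefore cannot tell whether samples of the same number share more than that number, and the reason for the 0.577 was not tested. With the replicate block the all-gene counts were 1817 and 1449, and the subunit median was 0.04, equal to that without involution replicate 3, which has no partner.

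Without 1 library, the counts ran from 296 to 786 higher and 208 to 483 lower over all genes and were 0 and 0 for the subunits. The medians ran from -0.05 to 0.20 over all subunits, -0.08 to 0.17 in complex I, -0.01 to 0.24 in II, -0.07 to 0.25 in III, -0.01 to 0.29 in IV and -0.01 to 0.24 in V.

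Some differences near 0 changed sign. At equal totals these were Ndufa4 (-0.12), Ndufs3 (-0.09), Ndufs8 (-0.13), Sdhb (-0.08), Cox7a2 (-0.07) and Atp5g3 (-0.05). With length and GC removed they were Ndufa4 (-0.05), Ndufs3 (-0.01), Ndufs8 (-0.05) and Cox7a2 (-0.00), with median centring Uqcrc1 (0.01) and Cox6a1 (0.01), and with the replicate block Ndufa4 (-0.02), Ndufs8 (-0.02), Cox7a2 (-0.02) and Lipe (0.02). Without 1 library the differences of complex I genes ran from -0.16 to 0.20 for Ndufa4, -0.29 to 0.15 for Ndufa4l2, -0.09 to 0.02 for Ndufs1, -0.12 to 0.23 for Ndufs3, -0.12 to 0.04 for Ndufs7, -0.19 to 0.20 for Ndufs8, -0.17 to 0.03 for Ndufv1 and -0.15 to 0.03 for Ndufv2. They ran from -0.16 to 0.01 for Sdha, -0.06 to 0.17 for Sdhb, -0.09 to 0.06 for Uqcrc1 and -0.08 to 0.37 for Uqcrq. They ran from -0.07 to 0.42 for Cox5a, -0.15 to 0.12 for Cox6a1, -0.03 to 0.17 for Cox7a2, -0.18 to 0.09 for Atp5a1, -0.24 to 0.06 for Atp5b and -0.05 to 0.25 for Atp5g3. Among other genes they ran from -0.38 to 0.10 for Lipe, -0.49 to 0.11 for Dio2, -0.41 to 0.05 for Tnnt3, -1.56 to 0.01 for Emcn and -0.42 to 0.07 for Tek.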

Other observations

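Genes of the protein-making and protein-degrading machinery, taken as other abundant transcripts, had 0 of 78 cytosolic ribosome genes and 0 of 38 proteasome genes past the threshold in limma, with 1 and 6 at an unadjusted p under 0.05. The highest proteasome differences were in subunits of the immunoproteasome, the form induced by interferon. Psmb9 stood at 8.91 and 8.63 in nulliparous and at 9.42, 9.13 and 9.60 in involution libraries, a difference of 0.61 (adjusted p = 0.0739 in limma). Psmb10 stood at 10.29 and 10.18 against 10.59, 10.61 and 10.86, a difference of 0.45 (adjusted p = 0.0522 in limma). In both genes every involution value lay above both nulliparous values. Ribosomal genes ranged from -0.12 to 0.30.

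In the mitochondrial ribosome list the extreme was Mrps18b, a small subunit protein gene, at 7.65 and 7.71 against 7.13, 6.93 and 7.24, a difference of -0.58 (adjusted p = 0.0834 in limma, and 0.0469 at equal totals). Acad9, an assembly factor of complex I that is also an acyl-CoA dehydrogenase, differed by -0.33 and the import channel gene Timm50 by -0.28, and neither passed.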
